A study of Mus musculus with 18 samples.

Results

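The mRNA levels of 35 DNA repair and checkpoint genes were followed in small cell lung cancer (SCLC) cells before and after restoration of p53. The genes were chosen by name, from the excision, mismatch, recombination, Fanconi and checkpoint pathways, and all 35 were found among the 25239 genes of the expression table. They were sorted by textbook knowledge, much of it from human cells, into 6 p53-target repair genes (Xpc, Ddb2, Ercc5, Polk, Polh and Rrm2b), 18 cell-cycle linked repair genes, whose transcription is usually highest in dividing cells, and 11 other repair and checkpoint genes. RNA was sequenced from 3 mouse Type D lines (4711-1, 4711-18 and 4716-11), derived from tumors of mice in which Rb1 and Rbl2 had been deleted by adenoviral Cre and Trp53 was held off by the XTR gene trap, so cells of every group lack these 2 of the retinoblastoma family genes. Each line carried Cas9 with the control guide sgBgal, with sgPpia#3.2 (exon 3 of Ppia, which encodes cyclophilin A) or with sgPpia#4.1 (exon 4). Each was treated for 72 h with vehicle (Control) or with 500 nM 4-OHT (Restored), which activates FlpO-ER and turns the Trp53 allele on, giving 6 groups of 3 samples in which the cell line is the replicate. No sample received 4-OHT without the allele, so 4-OHT itself and p53 cannot be told apart.

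Damaged DNA is mended by pathways that differ in the lesion they recognise. Nucleotide excision repair cuts out bulky adducts, base excision repair removes single altered bases, mismatch repair corrects copying errors, and the Fanconi anemia pathway and homologous recombination resolve crosslinks and broken chromosomes. The checkpoint kinases ATM and ATR signal the damage, in part to p53, which raises transcription of a few repair genes directly, while through p21 (Cdkn1a) and the DREAM and RB family complexes it lowers transcription of many genes that are expressed in S and G2 phases.

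The deposited values are TPM, a transcript level scaled for transcript length and for the total of each sample, and the absolute sequencing depth is therefore unknown. Trp53 ranged from 5.45 to 8.41 TPM in the 9 Control samples and from 181 to 236 TPM in the 9 Restored samples. Cdkn1a, a p53 target that arrests the cell cycle, lay between 99.4 and 171 TPM in 8 Control samples and at 369 TPM in the sgPpia#3.2 Control sample of line 4711-18. That sample also stood apart in the repair genes, and the calls are given with and without it. Ppia ranged from 1551 to 2849 TPM with sgBgal, from 658 to 1233 TPM with sgPpia#3.2 and from 1191 to 1952 TPM with sgPpia#4.1. Within each line and state it was below sgBgal with both guides, but not absent. The ranges of sgBgal and sgPpia#4.1 overlapped, and Ppia did not pass the main limma test against sgBgal with either guide. Of the neuroendocrine markers, Calca and Chga stayed under 1 TPM in all samples, while Syp lay between 3.03 and 7.12 TPM, Ncam1 between 6.90 and 29.7 TPM, Uchl1 between 1.21 and 2.81 TPM and Insm1 between 0 and 3.37 TPM. The summed level of 8 markers of immune, stromal and endothelial cells was 3.83 to 8.46 TPM in Control and 23.1 to 44.1 TPM in Restored cells. The highest of them, the lysosomal and macrophage gene Cd68, reached 39.8 TPM, while Ptprc, which marks all leukocytes, did not exceed 0.0814 TPM. The part of these markers in the results was not tested.

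Promoter sequences were taken from a set of RefSeq promoters (GRCm38.p6), which gave the 250 bases before the start of transcription for 26 of the 35 genes. Xpc, Ddb2, Rrm2b, Fancd2, Exo1, Rad54b, Xrcc2, Nbn and Rad50 had no entry in the set used here. The sequences printed are those of 4 genes that passed the test after restoration and whose 250 bases lie outside the annotated transcript, 3 that rose and 1 that fell. They are written 5′ to 3′ on the strand of the gene. Capitals mark a CCAAT box (the binding motif of NF-Y, read on either strand) or a CHR element (TTTGAA or TTCGAA, read on either strand), which is common in promoters of cell-cycle genes. Ercc5 is shown from chr1:44147494-44147743 on the plus strand, Polk from chr13:96542580-96542829 on the minus strand, Msh6 from chr17:87974800-87975049 on the plus strand and Rad54l from chr4:116123691-116123940 on the minus strand.
Ercc5: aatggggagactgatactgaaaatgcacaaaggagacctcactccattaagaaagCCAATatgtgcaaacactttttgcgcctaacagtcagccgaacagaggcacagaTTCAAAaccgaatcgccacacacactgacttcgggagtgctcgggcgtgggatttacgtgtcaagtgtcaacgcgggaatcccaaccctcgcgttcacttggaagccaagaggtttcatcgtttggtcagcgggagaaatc
Polk: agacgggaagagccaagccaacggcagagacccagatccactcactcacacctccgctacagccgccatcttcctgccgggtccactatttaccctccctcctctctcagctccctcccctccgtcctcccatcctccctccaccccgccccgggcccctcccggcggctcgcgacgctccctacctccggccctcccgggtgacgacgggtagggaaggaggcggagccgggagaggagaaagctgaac
Msh6: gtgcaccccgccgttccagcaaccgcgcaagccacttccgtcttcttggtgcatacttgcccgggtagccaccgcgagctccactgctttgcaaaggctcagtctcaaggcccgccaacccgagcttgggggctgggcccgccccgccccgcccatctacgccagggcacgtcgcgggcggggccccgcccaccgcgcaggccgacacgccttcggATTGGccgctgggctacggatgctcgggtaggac
Rad54l: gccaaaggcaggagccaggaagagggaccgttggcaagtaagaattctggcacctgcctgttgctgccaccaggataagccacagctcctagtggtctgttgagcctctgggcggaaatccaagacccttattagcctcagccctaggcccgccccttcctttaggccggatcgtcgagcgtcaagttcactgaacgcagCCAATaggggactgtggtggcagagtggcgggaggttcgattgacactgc
Ercc5 carries a CCAAT box and a CHR element, Msh6 and Rad54l each carry a CCAAT box, and the printed Polk promoter carries neither. A second RefSeq start of Polk, inside the gene, is preceded by 1 match to the p53 consensus half-site, as are Brip1 and Fanca among the 14 cell-cycle linked genes with a promoter and 8.2% of all genes. No pair of p53 half-sites 0 to 13 bases apart lay within the 250 bases of any of the 26 genes, and 0.0639% of all 32851 promoters hold one.

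The motifs were counted in each class. A CCAAT box was present in 8 of 14 cell-cycle linked genes with an entry, in 7 of 9 other genes and in 1 of 3 p53-target genes, against 37.5% of all 27025 genes in the table. An E2F-like motif (TTTCCCGC, TTTCGCGC, TTTGCCGC or TTTGGCGC on either strand) was found in Bard1, Brca2, Chek2 and Mdc1, against 2.16% of all genes, and a CHR element in Ercc5, Bard1 and Atr, against 19.6%. These are matches of letters and not evidence of binding.

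Which repair genes respond when p53 returns, and whether the p53-target and the cell-cycle linked genes move apart, was examined first in cells with sgBgal. Restored cells held several times more mRNA of Ercc5 and Polk and almost 3 times more of Msh6, and less of Fancd2, Fanci and Rad54l. Of the 35 genes, 3 were called up and 3 down by limma on log2(TPM + 1), at an adjusted p under 0.05 and a log2 change of at least 1, while 5.46% of all 12828 genes tested were called up and 2.17% down. With cell line as a block in the fit, 3 of the 35 were called up and 6 down, as were 988 and 426 of all genes. The median log2 change was 0.82 for the 6 p53-target genes, -0.65 for the 18 cell-cycle linked genes and 0.07 for the other 11, beside 0.19 for all genes tested. After rescaling by median-of-ratios, which brings the median of all genes to 0.00, the 3 medians were 0.62, -0.84 and -0.12, so the sign for the other 11 genes depends on the scaling. With no limit on fold, 5 of the 35 genes passed upward and 5 downward with sgBgal, as did 9.86% and 3.96% of all genes, 4 and 2 with sgPpia#3.2 (7.62% and 2.39% of all genes) and 3 and 4 with sgPpia#4.1 (7.16% and 3.14% of all genes).

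**Figure D1:**
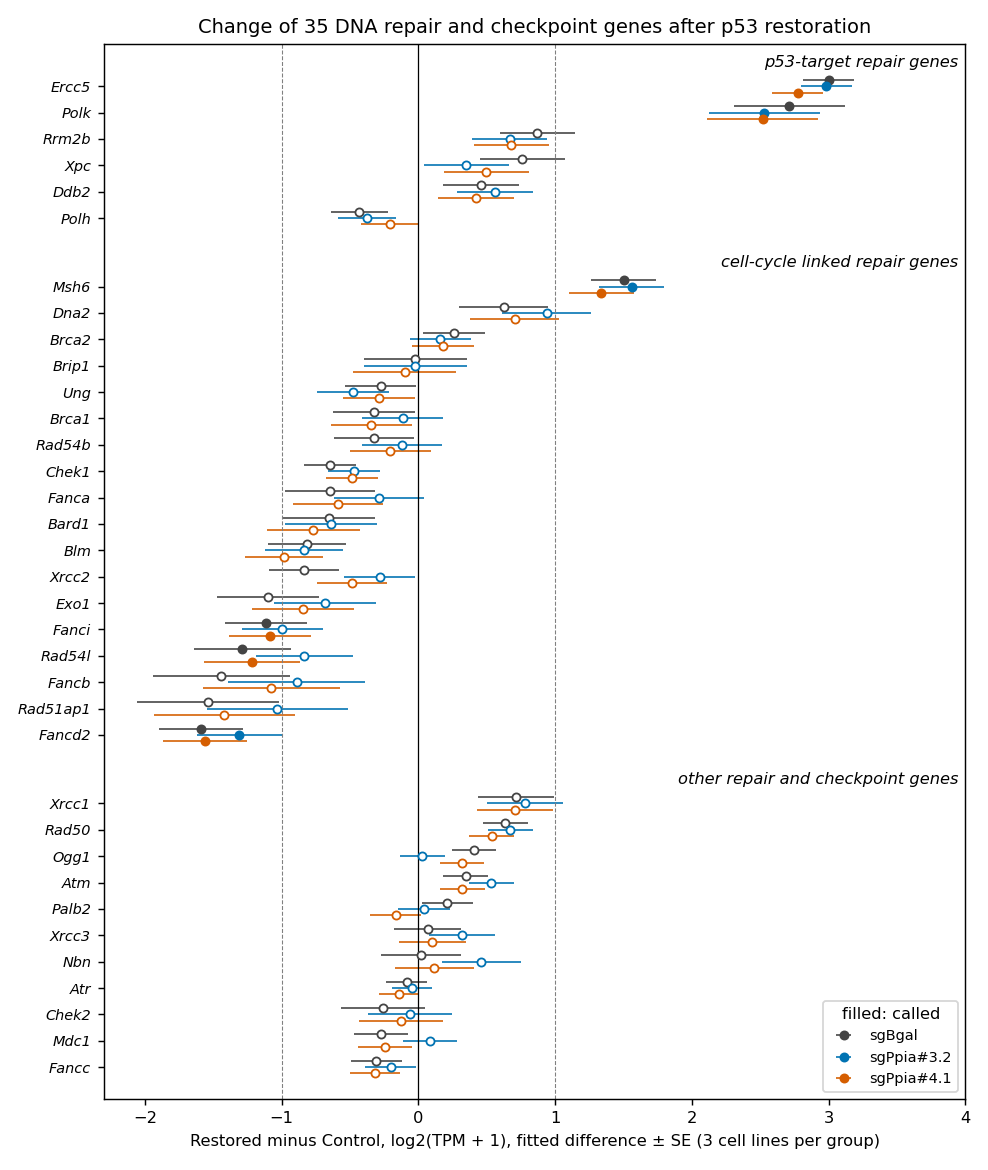
Fitted difference between Restored and Control cells on the log2(TPM + 1) scale for each of the 35 genes (rows, grouped by class and ordered by the sgBgal value), with the standard error as bars and 1 color per guide. Filled points are called, and only Ercc5, Polk and Msh6 lie right of the dashed line at 1 with all 3 guides, from 1.34 to 3.0.

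Among the nucleotide excision repair genes, Ercc5 changed most. Ercc5 (chr1:44147744-44181260, plus strand, GRCm38) encodes XPG, the nuclease that cuts on the 3′ side of a bulky lesion. With sgBgal it was at 11.7, 9.39 and 9.42 TPM in Control cells of lines 4711-1, 4711-18 and 4716-11 and at 77.0, 100.5 and 87.9 TPM in Restored cells. The groups did not overlap, the mean was 8.71-fold higher, and the log2 change was 3.0 ± 0.19 (SE, limma, adjusted p = 1.58e-07). With sgPpia#3.2 it went from 9.01, 9.26 and 10.8 TPM to 69.7, 95.4 and 87.0 TPM, and with sgPpia#4.1 from 9.33, 10.3 and 10.3 TPM to 56.0, 92.4 and 78.2 TPM. Line 4711-1 was the lowest of the Restored samples with each guide. Across all samples the Control values spanned 9.01 to 11.7 TPM and the Restored values 56.0 to 100.5 TPM.

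The damage sensors of the same pathway were not called. XPC recognises helix distortions anywhere in the genome and DDB2 binds ultraviolet photoproducts, and both are known as p53 targets from human cells. Xpc with sgBgal was at 7.72, 10.9 and 6.33 TPM in Control and 14.0, 19.3 and 11.2 TPM in Restored cells, a log2 difference of 0.76 ± 0.31 (limma, adjusted p = 0.121). The groups did not overlap, but the difference was not called. Ddb2 was at 6.97, 7.66 and 4.08 TPM and then at 9.57, 10.9 and 6.22 TPM, a log2 difference of 0.46 ± 0.28 (adjusted p = 0.302), and its groups overlapped. In the limma fit blocked on cell line both passed on p with sgBgal (adjusted p = 0.00988 for Xpc and 0.00887 for Ddb2). They missed only the fold limit there. Ddb2 was higher in Restored cells in 9 of 9 pairs of samples from 1 line and guide and Xpc in 8 of 9, the exception of Xpc being line 4711-18 with sgPpia#3.2, at 15.7 TPM in Control and 14.4 TPM in Restored cells.

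Of the translesion polymerases, Polk rose and Polh was not called. Polk (chr13:96480690-96542579, minus strand, GRCm38) encodes polymerase kappa, which copies past bulky minor-groove adducts. With sgBgal it was at 9.64, 8.72 and 6.62 TPM in Control and at 61.2, 81.5 and 42.3 TPM in Restored cells, a 7.41-fold difference of means with a log2 change of 2.71 ± 0.41 (limma, adjusted p = 0.000597). Its lowest Restored value, 37.9 TPM with sgPpia#4.1 in line 4716-11, was above its highest Control value, 16.7 TPM with sgPpia#3.2 in line 4711-18. Polh, which encodes polymerase eta, the enzyme that copies past thymine dimers, is known as a p53 target from human cells too, but it lay at 10.5, 13.9 and 11.2 TPM in Control and 9.21, 8.49 and 7.79 TPM in Restored cells. Its log2 difference was -0.43 ± 0.21 (adjusted p = 0.196), not called, and it was lower in Restored cells in 9 of 9 pairs. Rrm2b, the p53-inducible ribonucleotide reductase subunit that supplies nucleotides for repair, was at 7.89, 10.1 and 6.66 TPM and then at 13.3, 24.0 and 11.9 TPM. Its adjusted p was 0.0479 with a log2 difference of 0.87 ± 0.27, so it passed on p but not on fold, and it was higher in 9 of 9 pairs.

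Msh6 was the 1 cell-cycle linked gene called up. Of the 18, 15 had log2 differences below 0 with each guide, and Msh6, Dna2 and Brca2 had differences above 0, that of Brca2 with sgPpia#3.2 being -0.0085 under median-of-ratios rescaling. Msh6 (chr17:87975062-87990892, plus strand, GRCm38) encodes a mismatch repair protein that recognises mispaired bases, and it had the highest Control level of the 35 genes, with a median of 59.7 TPM over the 9 Control samples. With sgBgal it was at 54.9, 78.8 and 62.0 TPM in Control and 154, 206 and 198 TPM in Restored cells. The difference of means was 2.85-fold and the log2 change 1.5 ± 0.24 (limma, adjusted p = 0.000874). The groups did not overlap with any guide, the Control samples reaching 78.8 TPM at most and the Restored samples starting at 105 TPM. Without line 4716-11, which leaves 2 samples per group, Msh6 was no longer called with any guide, at log2 changes of 1.43 with sgBgal, 1.48 with sgPpia#3.2 and 1.27 with sgPpia#4.1.

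**Figure D2:**
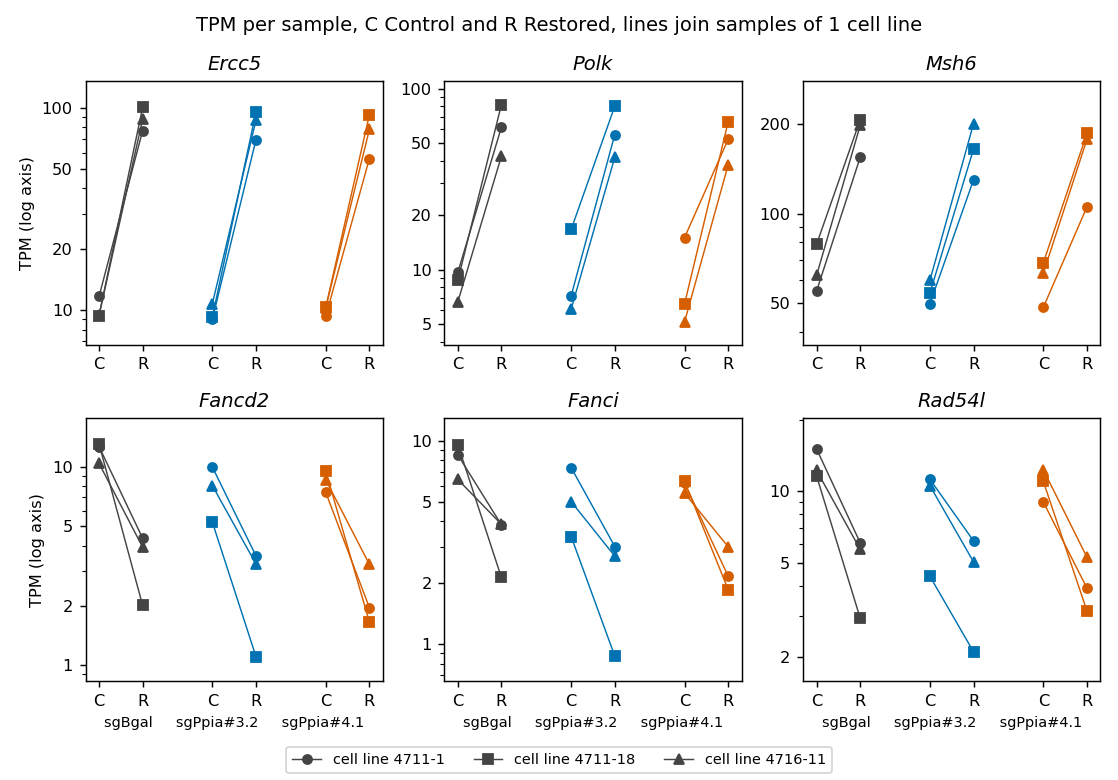
TPM (log axis) of the 6 called genes in each of the 18 samples, with Control (C) and Restored (R) samples of the same cell line joined, from left to right for sgBgal, sgPpia#3.2 and sgPpia#4.1. All 9 lines climb for Ercc5, Polk and Msh6 and all 9 descend for Fancd2, Fanci and Rad54l, and line 4711-18 with sgPpia#3.2 starts lowest in each of the lower panels.

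All 6 Fanconi anemia genes had log2 differences below 0 with each guide, and 2 of them fell past both limits with sgBgal. FANCD2 and FANCI form the clamp that is ubiquitinated at a DNA crosslink, while FANCA, FANCB and FANCC belong to the core complex that attaches the ubiquitin. Fancd2 (chr6:113531682-113597017, plus strand, GRCm38) was at 12.6, 13 and 10.4 TPM in Control and 4.36, 2.0 and 3.93 TPM in Restored cells with sgBgal, a log2 change of -1.59 ± 0.31 (limma, adjusted p = 0.00364). Over all guides its lowest Control value was 5.24 TPM and its highest Restored value 4.36 TPM. Fanci (chr7:79391929-79450264, plus strand) was at 8.51, 9.57 and 6.44 TPM and then at 3.85, 2.12 and 3.88 TPM, a log2 change of -1.11 ± 0.30 (adjusted p = 0.0234). The call of Fanci was lost on leaving out any 1 line (adjusted p = 0.118 without 4711-1, 0.0638 without 4711-18 and 0.114 without 4716-11) and in the fit to only the groups compared (0.0523), and that of Fancd2 without line 4716-11 (0.0611). Both were lowest in line 4711-18 after restoration. In the annotation 13.4% of the exonic bases of Fanci overlap Polg and 4.64% of those of Fancd2 overlap Fancd2os, each on the opposite strand. Opposite-strand overlap was also present for Ddb2 (26.7%, with Acp2), Fanca (8.62%, with Zfp276), Atr (7.9%) and Rrm2b (5.7%). Whether reads were assigned by strand is not given in the sources used here.

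The core complex genes did not pass. Fancb was at 13.1, 11.9 and 17.3 TPM in Control and 4.09, 2.54 and 8.24 TPM in Restored cells with sgBgal, without overlap, and its log2 difference was -1.44 ± 0.50 (limma, adjusted p = 0.0704). Blocked on cell line, its adjusted p was 0.000256 with sgBgal and 0.00223 with sgPpia#4.1, and it was called in both. Fanca was at 10.1, 13.1 and 11.7 TPM and then at 7.17, 5.33 and 9.01 TPM (log2 difference -0.65 ± 0.33), and Fancc, a member of the other class, differed by -0.31 ± 0.19. Brip1, the helicase also known as FANCJ, differed by -0.02 ± 0.38 with sgBgal, with opposite signs in different lines. Of the 6 Fanconi genes, 2 were called down and 0 up with sgBgal, 1 and 0 with sgPpia#3.2, and 2 and 0 with sgPpia#4.1. Of all genes 2.17%, 1.31% and 1.79% were called down and 5.46%, 4.44% and 4.3% up, in that order of guides.

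Of the 11 homologous recombination genes, only Rad54l was called, and it fell with sgBgal (2.17% of all genes were called down) and with sgPpia#4.1 (1.79%). RAD54L is a motor protein that helps the broken strand invade the intact duplex, and the product of Rad51ap1 stimulates the same step. Rad54l (chr4:116094264-116123690, minus strand, GRCm38) was at 15.1, 11.6 and 12.3 TPM in Control and 6.08, 2.93 and 5.70 TPM in Restored cells with sgBgal, a log2 change of -1.29 ± 0.35 (limma, adjusted p = 0.0257). Without line 4711-1 its adjusted p was 0.133 and without line 4716-11 0.152, and it was not called. With sgPpia#4.1 the call was lost in the same omissions, with no filter (adjusted p = 0.0692) and with a pseudocount of 0.1 (0.0503). Rad51ap1 with sgBgal went from 40.7, 34.6 and 36.2 TPM to 16.3, 5.35 and 19.5 TPM, with a log2 difference of -1.54 ± 0.52 (adjusted p = 0.0626) that was called in the fit blocked on cell line (adjusted p = 0.00538). It was lowest in line 4711-18 after restoration with each guide. Bard1, the partner of BRCA1, and Blm, the Bloom helicase, were lower in 9 of 9 pairs with log2 differences of -0.65 ± 0.34 and -0.82 ± 0.29 with sgBgal, and Blm passed on p alone with sgPpia#4.1 (-0.98 ± 0.29, adjusted p = 0.0417). Xrcc2, which acts in the early steps of recombination, was at 5.85, 8.90 and 4.52 TPM and then at 3.52, 3.13 and 2.52 TPM with sgBgal and passed on p alone (-0.84 ± 0.26, adjusted p = 0.0426).

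The best known genes of the pathway were not called. Brca2, a central mediator of recombination, was at 6.59, 7.07 and 6.65 TPM in Control and 7.35, 7.62 and 10.2 TPM in Restored cells with sgBgal, and Palb2, which ties BRCA2 to BRCA1, lay between 2.30 and 5.01 TPM in all 18 samples. Rad54b, a relative of RAD54L, differed by -0.33 ± 0.29 with sgBgal, and 39.2% of its exonic bases overlap other genes, so its reads could be shared with Fsbp. Xrcc3, which also acts in recombination, differed by 0.07 ± 0.24. Dna2, a nuclease and helicase that resects broken ends, was higher in 8 of 9 pairs, with log2 differences of 0.62 ± 0.32 with sgBgal, 0.94 ± 0.32 with sgPpia#3.2 and 0.70 ± 0.32 with sgPpia#4.1, none of them called.

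The other mismatch and base excision genes were not called. Exo1, the exonuclease of mismatch repair and of end resection, was at 11.3, 13.2 and 10.2 TPM in Control and 4.92, 3.30 and 6.76 TPM in Restored cells with sgBgal (-1.10 ± 0.37, limma, adjusted p = 0.0647), and it was called in the fit blocked on cell line (adjusted p = 0.0147). Ung, which removes uracil from DNA, differed by -0.28 ± 0.26, and Ogg1, which removes oxidised guanine, by 0.41 ± 0.16. Xrcc1, the scaffold of single-strand break repair, was at 25.2, 27.3 and 23.3 TPM and then at 37.4, 31.7 and 62.5 TPM. It was not called (0.72 ± 0.28, adjusted p = 0.102), although its highest Control value over all guides, 27.3 TPM, lay under its lowest Restored value, 28.0 TPM.

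None of the 7 checkpoint kinases and break sensors was called with any guide, where 4.3% to 5.46% of all genes were called up and 1.31% to 2.17% down, so that 0 of 7 is near the share over all genes. Chek1, the kinase downstream of ATR and a cell-cycle linked gene, was at 21.6, 21.8 and 16.3 TPM in Control and 12.5, 11.7 and 12.6 TPM in Restored cells with sgBgal, and passed on p but not on fold (-0.65 ± 0.19, limma, adjusted p = 0.0361). Rad50, of the MRN complex that holds broken ends, went from 26.1, 25.7 and 20.3 TPM to 40.2, 42.4 and 31.3 TPM (0.64 ± 0.16, adjusted p = 0.0199) and likewise passed on p alone with sgBgal and with sgPpia#3.2. Its Control samples reached 26.1 TPM at most and its Restored samples started at 27.5 TPM. Nbn, of the same complex, differed by 0.02 ± 0.29, Atm by 0.35 ± 0.16, Atr by -0.09 ± 0.15, Chek2 by -0.26 ± 0.31 and Mdc1, the adaptor that binds marked chromatin, by -0.28 ± 0.20. Atm was higher in 9 of 9 pairs, from a median of 5.94 TPM to a median of 8.94 TPM.

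The same genes were read in the cells with Ppia guides. Ercc5, Polk and Msh6 were called up with both, at log2 changes of 2.98, 2.53 and 1.56 with sgPpia#3.2 and 2.77, 2.52 and 1.34 with sgPpia#4.1. With sgPpia#3.2, 3 genes were called up, as were 4.44% of all genes, and only Fancd2 was called down (-1.31 ± 0.31, limma, adjusted p = 0.0144), as were 1.31% of all genes. With sgPpia#4.1, 3 were called up, as were 4.3% of all genes, and Fancd2, Fanci and Rad54l were called down, as were 1.79% of all genes. Blocked on cell line, limma gave Rad51ap1 an adjusted p of 0.046 with sgPpia#3.2 and called it down there too, as it did Rad51ap1 (0.0101) and Fancb (0.00223) with sgPpia#4.1. Fanci with sgPpia#3.2 missed the fold limit at -0.99 ± 0.30 (adjusted p = 0.0482), going from 7.36, 3.37 and 5.01 TPM to 3.01, 0.871 and 2.70 TPM. Rad54l with sgPpia#3.2 was at 11.2, 4.39 and 10.6 TPM in Control and 6.19, 2.11 and 5.05 TPM in Restored cells (-0.83 ± 0.35, adjusted p = 0.162), and its groups overlapped through line 4711-18.

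Counted over the 9 pairs of Control and Restored samples of 1 line and guide, 4 of 6 p53-target genes were higher in every pair (Ddb2, Polk, Rrm2b and Ercc5) and 1 was lower in every pair (Polh). Of the 18 cell-cycle linked genes, 11 were lower in every pair and 1, Msh6, was higher in every pair. Of the 11 others, Atm, Xrcc1 and Rad50 were higher and Fancc was lower in every pair. Within each line and guide the median change of the p53-target genes was above 0 and that of the cell-cycle linked genes below 0. The latter was -0.53, -1.05 and -0.34 in lines 4711-1, 4711-18 and 4716-11 with sgBgal, -0.44, -0.66 and -0.23 with sgPpia#3.2 and -0.64, -0.92 and -0.21 with sgPpia#4.1, so it was farthest below 0 in line 4711-18 and nearest to 0 in line 4716-11 with each guide. The median of the p53-target genes was 0.74, 0.97 and 0.74 with sgBgal, 0.68, 0.70 and 0.55 with sgPpia#3.2 and 0.35, 1.09 and 0.51 with sgPpia#4.1.

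Some of the proliferation genes fell as well. Of 26 such genes, 0 were called up with any guide, and those called down numbered 13 (sgBgal), 12 (sgPpia#3.2) and 13 (sgPpia#4.1), with medians of -1.45, -1.16 and -1.34. Over all genes 2.17%, 1.31% and 1.79% were called down and 5.46%, 4.44% and 4.3% up. Below 0 were 18, 15 and 16 of the 26, and the others lay above 0. One of them, the cyclin gene Ccne1, named here after its values were seen, was called up with each guide when blocked on cell line. The mitotic kinase gene Plk1 went from a mean of 153 TPM to 21.0 TPM with sgBgal (-3.14, limma, adjusted p = 0.00806), and the cyclin gene Ccna2 from 105 to 13.3 TPM (-2.96, adjusted p = 0.00197). The medians of the cell-cycle linked repair genes were closer to 0, at -0.65, -0.47 and -0.54. In bulk RNA, fewer cells of a kind and less RNA per cell cannot be told apart, and the part of the share of dividing cells was not tested.

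**Figure D3:**
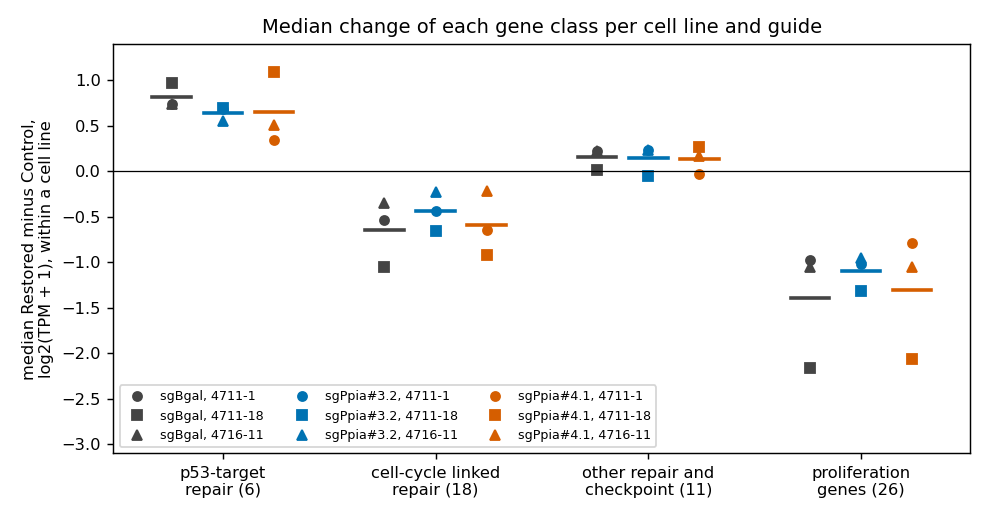
Median over the genes of a class of the difference between Restored and Control on the log2(TPM + 1) scale, for each cell line (marker shape) and guide (color), with the mean of the 3 lines as a bar. The p53-target genes lie above 0 and the cell-cycle linked and proliferation genes below 0 in all 9 combinations, with line 4711-18 lowest for the cell-cycle linked genes at -1.05 with sgBgal.

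Other repair genes were compared from a list of 111 genes in the table, of which 108 were tested. With sgBgal 1 was called up and 4 down, with sgPpia#3.2 1 up and 1 down, and with sgPpia#4.1 1 up and 4 down, against 5.46% of all genes up and 2.17% down, 4.44% and 1.31%, and 4.3% and 1.79%. Their medians were 0.16, 0.15 and 0.12, beside 0.19, 0.17 and 0.15 for all genes. After median-of-ratios rescaling the medians were below 0, at -0.056, -0.036 and -0.031, and 8, 4 and 6 genes were called down. Blocked on cell line, 2 were called up with each guide, and 4, 3 and 4 down. Without the block or rescaling, the gene called up was Rev1, the scaffold of translesion polymerases, which went from a mean of 9.80 TPM to 29.0 TPM with sgBgal (1.44, limma, adjusted p = 0.00208). Those called down with sgBgal were Neil3, a glycosylase for crosslinks and oxidised bases (-2.16, adjusted p = 0.0314), H2ax, the histone that marks broken chromosomes (-2.07, adjusted p = 0.0039), Gen1, a resolvase of Holliday junctions (-1.39, adjusted p = 0.0196), and Eme1, the partner of the MUS81 nuclease (-1.31, adjusted p = 0.0137).

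One Control sample stood apart in these genes. In the sgPpia#3.2 Control sample of line 4711-18, 15 of the 18 cell-cycle linked genes were below the other 8 Control samples and 1, Ung, was above them, while 4 of 6 p53-target genes (Xpc, Ddb2, Polk and Polh) were above them. Rad51ap1 was at 11.6 TPM against 24.2 to 40.7 TPM in the others, Rad54l at 4.39 TPM against 9.03 to 15.1 TPM, and Brip1 at 1.65 TPM against 3.57 to 5.07 TPM. The same sample had Cdkn1a at 369 TPM against 99.4 to 171 TPM and the proliferation marker Mki67 at 23.0 TPM against 62.1 to 99.6 TPM. Mdm2, another check of restoration, was at 95.7 TPM against 64.4 to 93.3 TPM. Ppia was at 658 TPM against 1073 to 2849 TPM, and Trp53 at 5.45 TPM against 5.81 to 8.41 TPM. What set this sample apart was not tested. The sgBgal Control sample of the same line was above the other 8 Control samples in 10 of the 18 cell-cycle linked genes and in 6 of the 11 other genes, and it is the Control behind the median of -1.05 for that line with sgBgal. The Restored partner of the sgPpia#3.2 sample had 16 of the 18 cell-cycle linked genes below the other 8 Restored samples. Without this Control sample, 6 genes were called down with sgBgal (Rad51ap1, Fancb and Exo1 in addition) and 3 with sgPpia#3.2 (Fancd2, Fanci and Rad54l), while the 3 called down with sgPpia#4.1 were the same genes as with it. Without line 4711-18 altogether, Rad51ap1, Fancd2 and Rad54l were called down with sgBgal. The share of all genes called under these omissions is not given here, so these counts have no background beside them.

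**Figure D4:**
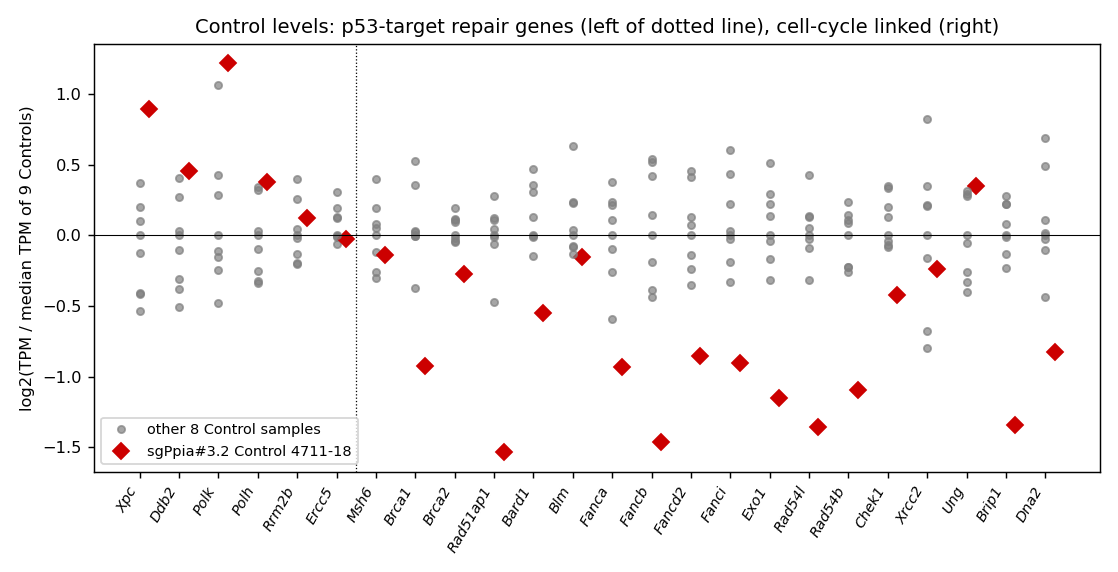
Log2 ratio of each of the 9 Control samples to the median of the 9, for the 6 p53-target and the 18 cell-cycle linked genes, with the sgPpia#3.2 sample of line 4711-18 as red diamonds, shifted to the right, and the other 8 as grey points. The red diamond is the lowest point in 15 of the 18 cell-cycle linked genes and the highest in 4 of the 6 p53-target genes.

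Whether lowering cyclophilin A changes these genes or their response to p53 was asked by comparing each Ppia guide with sgBgal. None of the 35 genes was called in Control or Restored cells with either guide, and 0% of the 12828 genes were called in any of these 4 comparisons by limma. Ppia itself was not called, although its mean in Control cells was 2709 TPM with sgBgal and 979 TPM with sgPpia#3.2. The absence of a call here therefore cannot show that a gene is unchanged. In the fit blocked on cell line none of the 35 was called either, and of all genes 2 were called down with sgPpia#3.2 in Control cells, 1 in Restored cells and 0 with sgPpia#4.1. At an unadjusted p under 0.05, 3 of the 35 differed between sgPpia#3.2 and sgBgal Control cells, all lower (Brca1 by -0.65 ± 0.30, Mdc1 by -0.48 ± 0.20 and Atm by -0.39 ± 0.16, adjusted p = 1.00 each), and 0 differed in the other 3 comparisons. Over all 12828 genes 311 did in that comparison, 154 with sgPpia#3.2 in Restored cells, and 27 and 68 with sgPpia#4.1 in Control and Restored cells. Blocked on cell line, 10 of the 35 and 1628 of all 12828 genes had an unadjusted p under 0.05 there, 1 of the 35 and 1108 of all genes in Restored cells with sgPpia#3.2, and 0 of the 35 in either state with sgPpia#4.1, against 162 (Control) and 424 (Restored) of all genes. Brca1 was at 17.6, 15.6 and 12.2 TPM with sgBgal and 12.5, 6.45 and 9.46 TPM with sgPpia#3.2. The median difference of the cell-cycle linked genes in that comparison was -0.52, and without the sample that stood apart it was -0.22. By line it was -0.18, -1.15 and -0.17 in lines 4711-1, 4711-18 and 4716-11, beside -0.10, -0.06 and -0.07 for all genes. In line 4711-18 the sgBgal Control sample was itself above the other 8 Control samples in 10 of the 18. With sgPpia#4.1 the median of the 18 was -0.24 in Control cells (all genes -0.04) and -0.16 in Restored cells (all genes -0.07). With sgPpia#3.2 in Restored cells it was -0.20 (all genes -0.09).

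The response itself was compared by the interaction of guide and restoration. None of the 35 genes passed at an adjusted p under 0.05 for either guide, 0% of the 12828 genes did, and 0 of the 35 had an unadjusted p under 0.05 by limma without the block, beside 31 and 18 of all genes. With the replicate block, 1 of the 35 had an unadjusted p under 0.05 for sgPpia#3.2 and 0 for sgPpia#4.1, beside 175 and 80 of all 12828 genes. The response of Ercc5 differed from that with sgBgal by -0.02 ± 0.27 on the log2 scale with sgPpia#3.2 and by -0.23 ± 0.27 with sgPpia#4.1, that of Polk by -0.18 ± 0.57 and -0.19 ± 0.57, that of Msh6 by 0.06 ± 0.34 and -0.17 ± 0.34, and that of Fancd2 by 0.28 ± 0.44 and 0.03 ± 0.44. An exact permutation of single genes with 3 samples against 3 cannot go below p = 0.1 (two-sided).

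Brca1, Brip1 and Chek2, none of them called, had differences of opposite sign between the lines. Brca1, which directs broken ends to recombination, was higher after restoration in line 4716-11 with each guide, from 12.2, 9.46 and 12.2 TPM to 13.3, 11.8 and 14.4 TPM with sgBgal, sgPpia#3.2 and sgPpia#4.1. In line 4711-1 it was lower, from 17.6, 12.5 and 12.5 TPM to 14.1, 8.85 and 7.22 TPM, and in line 4711-18 from 15.6, 6.45 and 12.2 TPM to 8.65, 5.55 and 8.10 TPM. Brip1 and Chek2 followed the same pattern. With 1 sample per line, guide and state, these differences between lines were not tested.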

How the data were processed

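RNA of 18 cell line samples was prepared by the sequencing provider with the NEBNext Ultra II RNA kit. The table deposited by the authors holds TPM of 25239 genes, and every sample sums to 1000000. The labels name HISAT2, bcl2fastq 2.17 and 2 genome builds (mm10 and GRCm39) in the submitters' processing notes; the study's methods name Kallisto or HISAT2 for alignment. Which of these, which build and which gene counter gave these values, and whether strand was used, is not given in the sources used here. Because TPM keep no total count, depth is unknown and no counting interval was computed.

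Here log2(TPM + 1) was fitted with limma 3.58.1 (R 4.3.3) for 12828 genes that reached 1 TPM in 3 or more samples, with a mean for each of 6 groups, and p was adjusted over all of them by Benjamini-Hochberg. All 35 genes passed the filter. A gene was called at an adjusted p under 0.05 and an absolute log2 change of at least 1; interactions were judged on adjusted p alone. Nothing says that the samples come from repeated cultures of a line, so p measures the spread between 3 lines. In 200 genes changed in simulated data the sgBgal comparison recovered 87% of changes of 2 and 90% of changes of 3 on the log2 scale, with 7 false calls. The simulated noise was independent between samples, without deviations shared by a line. Only genes with a mean log2(TPM + 1) above 2 were changed, and smaller changes were not simulated, so recovery of these is unknown. Samples of 1 line deviated together from their group means in 45 of 45 pairs (lowest r across genes 0.58, mean 0.73), so the samples are paired by cell line. The main fit has no term for cell line, and its p, SE and calls do not use this pairing. A fit with cell line as the replicate block was run as an alternative.

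The 35 genes, their classes and the other gene lists were chosen with earlier results of these data known. Named beyond the 35 were the checks Trp53, Cdkn1a, Mdm2 and Ppia, the marker genes, and up to 5 genes called in each direction from the other repair and proliferation lists. Mki67 and Ccne1, of the proliferation list, were named outside this rule, Ccne1 after its values were seen. Alternatives were the replicate block, no minimum fold, no filter or a mean of at least 5 TPM, a pseudocount of 0.1, rescaling by median-of-ratios, robust eBayes with a trend, fits to only the groups compared, and the omission of each line or of the sample that stood apart. Positions and overlaps are from GENCODE M21 (GRCm38) and promoters from RefSeq (GRCm38.p6). Some other genes that were examined are not reported here.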

Additional observations from a re-analysis of the deposited data

Results flagged for a closer look

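Brca1, Brip1 and Chek2 were noted because every sample pair of line 4716-11 moved one way after restoration and every pair of lines 4711-1 and 4711-18 the other way. Brca1 changed by a mean of 0.21 on the log2(TPM + 1) scale over the 3 guides in line 4716-11, by -0.49 in line 4711-1 and by -0.50 in line 4711-18. For Brip1, a helicase that works with BRCA1, the means were 0.42, -0.19 and -0.37 in the same order. For Chek2, the checkpoint kinase downstream of ATM, they were 0.31, -0.33 and -0.42. The difference between lines was not tested, since each line has 1 sample per guide and state, and the lines are the replicates of the study. None of the 3 genes was called in any comparison by limma.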

How the results depend on the processing

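Ercc5 and Polk were called up under all 13 alternatives with each guide. Msh6 was called up under all but the omission of line 4716-11 and, with sgPpia#4.1, the fit to only the groups compared and the omission of line 4711-18. The down calls depended most on the settings. Under the replicate block, with cell line as the block, they were 6 with sgBgal, 2 with sgPpia#3.2 and 5 with sgPpia#4.1, while those over all 12828 genes went from 279, 168 and 229 to 426, 284 and 374. The replicate block without the sgPpia#3.2 Control sample of line 4711-18, an alternative chosen after seeing the data, gave 6, 5 and 5. With no minimum fold there were 5 calls up and 5 down with sgBgal and 2 down with sgPpia#3.2. With sgPpia#3.2 the fit to only the groups compared gave 0 and rescaling 2, and with sgPpia#4.1 the absence of a filter gave 1. Over the omission of each line or of the sample that stood apart, the down calls ranged from 0 to 6 with sgBgal, 0 to 3 with sgPpia#3.2 and 0 to 3 with sgPpia#4.1. They were 1, 0 and 0 without line 4711-1 and 0, 0 and 0 without line 4716-11, with 2 samples left in each group. No share over all genes is given for the omissions. The median of the p53-target genes became 0.62 with sgBgal, 0.44 with sgPpia#3.2 and 0.43 with sgPpia#4.1 under rescaling. Over the omissions it ranged from 0.74 to 0.85, from 0.59 to 0.76 and from 0.34 (without line 4711-18) to 0.80 in that order. Over all genes, rescaling moved the calls from 701 up and 279 down to 484 and 382 with sgBgal, from 570 and 168 to 416 and 239 with sgPpia#3.2, and from 552 and 229 to 414 and 292 with sgPpia#4.1. A mean of at least 5 TPM kept 27 of the 35 genes. The causes were not tested.

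Of 105 log2 changes (35 genes with 3 guides), 16 changed sign under at least 1 alternative, and 0 of these had been called. Under rescaling these were Brca2 (-0.0085), Palb2 (-0.11), Mdc1 (-0.10) and Ogg1 (-0.17) with sgPpia#3.2, Xrcc3 (-0.12) and Nbn (-0.19) with sgBgal, and Xrcc3 (-0.052) and Nbn (-0.053) with sgPpia#4.1. Mdc1 was at -0.079 with sgPpia#3.2 under the replicate block without the sample that stood apart. Over the omissions the range spanned 0 with sgPpia#3.2 for Atr (-0.078 to 0.035), Mdc1 (-0.025 to 0.15), Brca1 (-0.34 to 0.053), Brca2 (-0.023 to 0.36), Brip1 (-0.37 to 0.083), Chek2 (-0.22 to 0.031) and Ogg1 (-0.080 to 0.18). With sgBgal it did so for Brip1 (-0.26 to 0.21), Xrcc3 (-0.056 to 0.17) and Nbn (-0.15 to 0.12), and with sgPpia#4.1 for Brip1 (-0.38 to 0.049), Chek2 (-0.38 to 0.016) and Ung (-0.53 to 0.0098).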
